A study of Mus musculus with 20 samples.

Results

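Stretches of mouse liver chromatin that carried a peak of acetylated lysine 14 of histone H3 (H3K14ac) at 3 months and again at 21 months of age are described here, and are called kept sites. They were chosen by their peaks: a kept site is a peak of the young list on chromosomes 1 to 19 that is exactly 500 bp wide and shares at least 1 bp with a peak of the old list. This rule took 3604 of the 18424 young peaks of that width on these chromosomes, which is 19.6%, and the young list holds 19350 peaks in all. Another 333 wider young peaks and 78 young peaks on chromosome X or Y also had an old partner and are not members. The other 500 bp peaks served for comparison, namely 14820 that were found in the young list only (young-only) and 15997 of the old list without a young partner (old-only).

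The series compares livers of young (3 months) and old (21 months) wild-type C57BL/6 mice, which per the study's methods were male, by chromatin immunoprecipitation and sequencing (ChIP-Seq). The labels name no transgene, deletion or treatment in any group, and age is the difference they give. H3K14ac and Setdb1 were assayed in 3 livers per age and Kap1 in 2 per age. The authors merged the livers of an age before they called peaks, and a list gives positions without heights, so no spread between livers and no depth behind a peak can be given. The bounds in brackets after a share are its 95% Wilson interval, those after a difference are a 95% Newcombe interval, and both cover counting error only. A site listed at both ages is one with a call in each list, and neither an equal level at the 2 ages nor the fate of the mark in 1 cell can be read from it. The liver is a mixture of cells, and fewer cells of a type and less mark per cell cannot be told apart. Of the markers of liver cell types, a kept site lay at the start of 3 of 13 hepatocyte genes (Apoa1, Apoa2 and Apoc3), and at none of 9 Kupffer cell, 9 endothelial, 10 stellate cell, 6 cholangiocyte and 10 lymphocyte genes. With a kept site at 10.2% of all protein-coding genes, 0 in any single list of this size does not set that cell type apart. In the order given, 9, 9, 8, 5 and 10 genes of these lists had no H3K14ac peak at a start at either age. The same held for 5 of the 13 hepatocyte genes and for 13622 of 20807 protein-coding genes. The lists were not tested, singly or together. Alb, the gene of serum albumin, had no H3K14ac peak within 1 kb of a start site at either age.

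Acetyl groups on histone H3 are added by acetyltransferases such as p300, CBP, PCAF and Tip60, and are removed by deacetylases such as Hdac1. The mark is known from the nucleosomes next to start sites of active genes. Kap1, the product of Trim28, is a corepressor that zinc finger proteins with a KRAB domain bring to DNA, and Setdb1 is the enzyme that Kap1 recruits to methylate lysine 9 of the same histone tail. Targets of this pair include retroviral elements and the clusters of zinc finger genes themselves.

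The letters of the kept sites varied widely, also among those at start sites and among those elsewhere, and the central 300 bases of 5 named sites are printed as examples, not as typical of either kind. The build is GRCm38 (mm10), and the bases were read from its RefSeq sequence. In the sites at gene starts the capitals mark each CpG, a C followed by a G, and the bases are given 5′ to 3′ along the gene. Cebpa, which encodes a transcription factor of hepatocytes, is shown at chr7:35119599-35119898 on the plus strand, where all 300 bases are exonic and hold 41 CpG. Apoa1, which encodes the main protein of high density lipoprotein, is shown at chr9:46229095-46229394 on the plus strand, with 154 exonic bases and 6 CpG.
Cebpa: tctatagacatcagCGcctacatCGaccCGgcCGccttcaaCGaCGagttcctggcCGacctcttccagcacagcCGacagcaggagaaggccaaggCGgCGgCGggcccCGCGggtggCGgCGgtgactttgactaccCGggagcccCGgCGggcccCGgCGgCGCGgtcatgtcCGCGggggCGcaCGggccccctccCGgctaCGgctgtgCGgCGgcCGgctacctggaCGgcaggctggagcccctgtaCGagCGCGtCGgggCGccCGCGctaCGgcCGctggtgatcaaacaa
Apoa1: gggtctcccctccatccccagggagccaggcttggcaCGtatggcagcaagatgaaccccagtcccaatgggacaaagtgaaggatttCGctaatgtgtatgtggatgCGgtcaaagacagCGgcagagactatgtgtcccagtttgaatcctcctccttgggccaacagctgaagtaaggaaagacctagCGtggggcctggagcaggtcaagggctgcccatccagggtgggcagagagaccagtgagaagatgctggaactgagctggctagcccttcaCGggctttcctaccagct

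The other 3 sites lie in introns, over 10 kb from the nearest start site, and had peaks of Kap1 and of Setdb1 at both ages. Here the capitals mark the bases inside a Kap1 peak at both ages, and the plus strand is given. Fbxw4 is shown at chr19:45650026-45650325, where 297 of the 300 bases were inside both Kap1 peaks. Cmss1 is shown at chr16:57391442-57391741, where all 300 were. The long noncoding RNA gene C230088H06Rik lies among zinc finger genes of chromosome 4 and is shown at chr4:147241776-147242075, where 196 of the bases were inside both.
Fbxw4: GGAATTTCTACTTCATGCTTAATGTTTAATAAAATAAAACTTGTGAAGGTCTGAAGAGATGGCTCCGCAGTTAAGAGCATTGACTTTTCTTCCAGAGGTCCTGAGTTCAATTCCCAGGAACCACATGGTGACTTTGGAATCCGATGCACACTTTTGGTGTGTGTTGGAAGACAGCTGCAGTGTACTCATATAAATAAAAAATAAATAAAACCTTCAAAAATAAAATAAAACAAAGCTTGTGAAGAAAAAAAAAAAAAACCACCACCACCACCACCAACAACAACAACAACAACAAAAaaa
Cmss1: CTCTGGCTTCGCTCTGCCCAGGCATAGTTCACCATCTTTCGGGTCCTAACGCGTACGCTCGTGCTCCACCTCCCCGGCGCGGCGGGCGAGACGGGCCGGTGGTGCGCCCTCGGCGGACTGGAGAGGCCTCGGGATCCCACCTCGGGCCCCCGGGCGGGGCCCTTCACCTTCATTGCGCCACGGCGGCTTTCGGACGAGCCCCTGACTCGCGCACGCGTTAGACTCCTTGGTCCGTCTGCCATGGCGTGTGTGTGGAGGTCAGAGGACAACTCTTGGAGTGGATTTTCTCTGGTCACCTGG
C230088H06Rik: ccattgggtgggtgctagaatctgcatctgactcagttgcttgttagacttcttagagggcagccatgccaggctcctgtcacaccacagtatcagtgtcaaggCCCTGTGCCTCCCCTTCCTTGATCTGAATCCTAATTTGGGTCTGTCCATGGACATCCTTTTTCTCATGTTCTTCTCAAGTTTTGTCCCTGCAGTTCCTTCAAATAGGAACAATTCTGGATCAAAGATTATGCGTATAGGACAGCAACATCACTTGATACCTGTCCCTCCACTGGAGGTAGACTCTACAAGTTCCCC

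The young peak and its old partner usually lay nearly on top of each other. A single old partner was found for 3214 kept sites, 2 for 372 and 3 for 18. The young and the old peak shared a median of 399 bp (quartiles 284 and 463 bp), 2851 sites shared at least 250 bp, and 9 had identical coordinates at both ages, among them those in Fbxw4 and Csf2ra and those at the starts of Duxf3, Mtmr4, Luc7l3, Rnd2 and Cpeb2. At the other edge of the rule, 131 kept sites shared under 50 bp. The sites next to Tysnd1, Prrg4 and Plekhn1 shared 1 bp, whereas the young-only peaks next to Fbxo33, Ptdss1 and Scamp1 touched an old peak without sharing a base, with a gap of 0 bp. Within 50 bp of an old peak lay 126 young-only peaks. These distances come from the lists that chose the sites and are a description.

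Kept sites were mostly found at gene starts. Within 1 kb of an annotated start site lay 2378 of them, or 66.0% (64.4% to 67.5%), against 27.6% of all 500 bp young peaks, 18.3% of the young-only and 30.1% of the old-only peaks. The share was 47.7 points higher than in young-only peaks (46.0 to 49.3) and 35.9 points higher than in old-only peaks (34.2 to 37.6). Of the remaining kept sites 531 lay between genes, 528 in introns and 167 on exons. A start site of a protein-coding gene was within 1 kb of 62.2% of the kept sites. The share at start sites was 78.9% in the 1 Mb bins that held fewer than 10 kept sites, a split made after the data were seen. Kept sites also differed in letters. Their median GC content was 60.0% (quartiles 48.8% and 67.6%), against 45.6% in young-only and 48.0% in old-only peaks. Letters like those of a CpG island, with GC content above 50% and an observed over expected CpG ratio above 0.6, were found in 52.3% of the kept sites, 7.49% of the young-only and 21.2% of the old-only peaks. Among peaks at start sites alone the shares were 76.3% (74.5% to 77.9%), 38.3% and 66.0%, so that kept sites exceeded young-only peaks by 38.0 points (35.4 to 40.4) and old-only peaks by 10.3 points (8.07 to 12.4). Windows of 500 bp around the starts of all 20807 protein-coding genes had such letters in 48.7%.

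**Figure D1:**
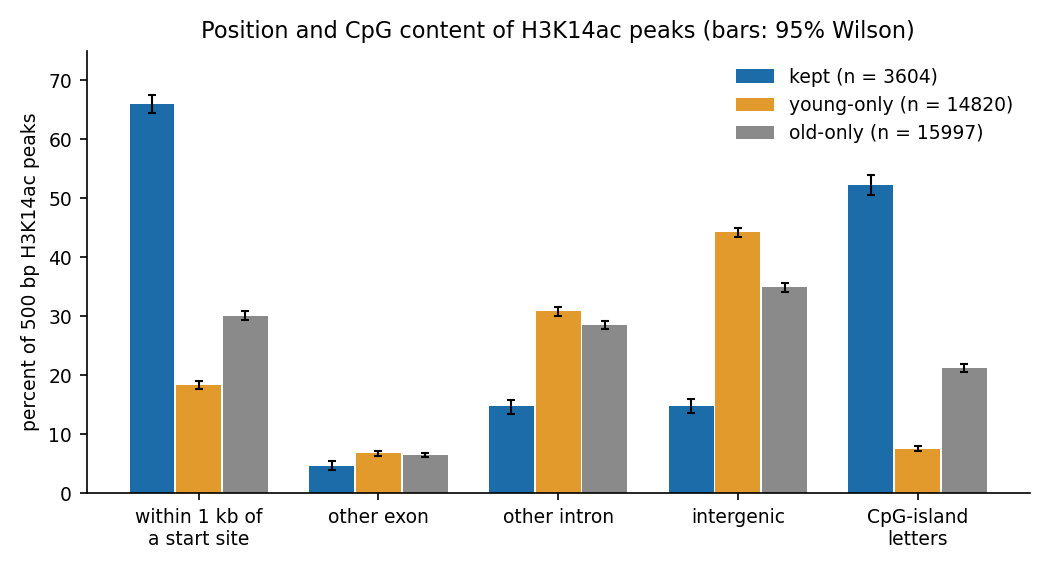
Percent of 500 bp H3K14ac peaks (vertical axis) that lay within 1 kb of a start site, on another exon, in another intron or between genes, and that had CpG-island letters, for kept, young-only and old-only peaks; error bars are 95% Wilson intervals. The kept sites stand at 66.0% at start sites and 52.3% for CpG-island letters, above both other groups.

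At start sites the mark sat just inside the gene. The midpoint of a kept site lay a median of 215 bp downstream of the nearest start (quartiles 68.2 and 392 bp), and 78.9% of the midpoints were downstream (77.2% to 80.5%). In young-only peaks at start sites 64.9% were downstream, which is 14 points fewer (11.6 to 16.4), and in old-only peaks 74.3%. Between 1 and 500 bp downstream lay 62.4% of the kept midpoints. The peak itself covered the start in 1074 of 2378 kept sites (45.2%), against 36.4% of young-only and 45.9% of old-only peaks there. Protein-coding starts on both strands, as at a divergent promoter, were within 1 kb of 9.29% of them, against 7.66% and 7.67%. The midpoint of the old partner was upstream of the young one in 1187 of 2263 pairs of 500 bp peaks, downstream in 1071 and equal in 5. Upstream shifts were 52.6% of the 2258 shifted pairs, and the median shift was -8 bp along transcription. These positions come from the lists that chose the sites, and some sites share an old peak. The shifts are a description, and a shift with age was not tested. The motifs were read in the 500 bp of each peak on both strands. The GC box GGGCGG was present in 67.5% of the kept sites at start sites (65.6% to 69.4%), in 40.5% of young-only and in 63.7% of old-only peaks there. In the 500 bp around all protein-coding starts it was present in 53.5%. The CCAAT box was found in 29.1% of the kept sites at start sites and TATAAA in 5.97%, against 33.7% and 8.97% of old-only and 44.2% and 14.7% of young-only peaks there. The windows around protein-coding starts held them in 48.1% and 16.4%. Those windows are centred on the start and the kept sites mostly lie downstream of it, so these letters were searched at different distances from the start. The letters ATCAATA, which the liver factor Hnf6 binds, were in 0.967% of the kept sites at start sites (0.645% to 1.45%), 2.98% of the young-only and 1.64% of the old-only peaks there. Elsewhere they were in 4.73% of the kept sites (3.68% to 6.07%) and 6.01% of the young-only peaks (5.60% to 6.45%), whose intervals overlap.

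**Figure D2:**
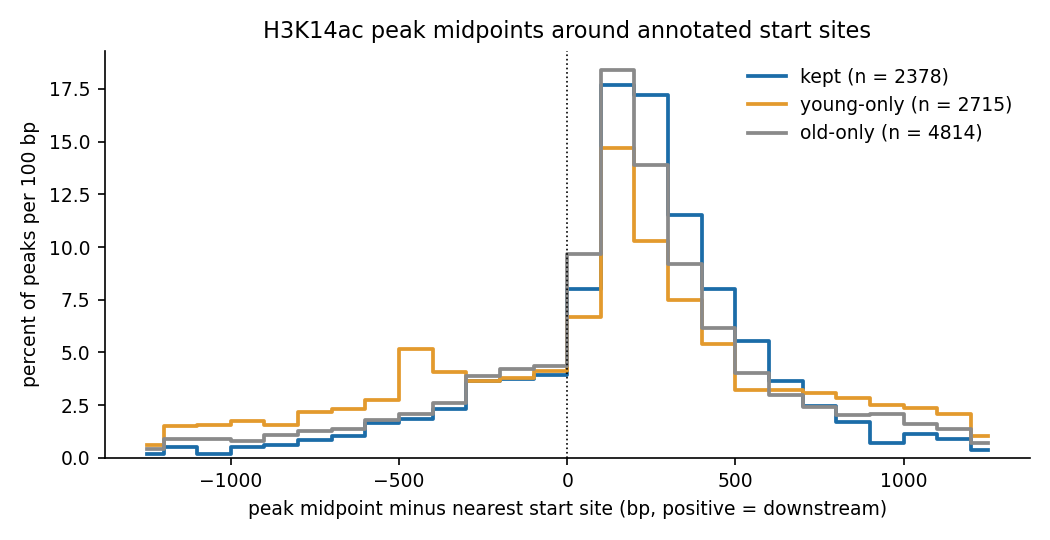
Midpoints of H3K14ac peaks within 1 kb of a start site, as the percent of peaks per 100 bp bin (vertical axis) against the distance to the nearest start site in bp (horizontal axis, positive is downstream), for kept, young-only and old-only peaks. The kept sites are most frequent between 100 and 300 bp downstream, with 17.7% and 17.2% of them in those 2 bins.

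A kept site was found at the start of 2115 of 20807 protein-coding genes, or 10.2%. Of the 7185 genes with an H3K14ac peak at a start at either age, 29.4% had one. Among lists of genes with a role in liver, transcription factors and nuclear receptors had the highest share, 16 of 38 genes (42.1%). They included Foxa2, Foxa3, Cebpa, Cebpb and Prox1, which act in hepatocyte gene expression, Onecut1, which encodes Hnf6, and Onecut2, the fatty acid receptor genes Ppara and Ppard, their partner Rxra, the receptor genes Thrb, Nr2f6, Nr3c1 (the glucocorticoid receptor) and Ahr (which binds foreign compounds), and Xbp1 of the unfolded protein response. The kept site of Foxa3 shared 493 bp with its old partner and lay 127 bp downstream of the start, and that of Foxa2 shared 438 bp and lay 175 bp upstream. In the list of cholesterol and triglyceride genes 12 of 50 (24.0%) had a kept site. These included Hmgcs1 of cholesterol synthesis, Insig1 and Insig2, which restrain it when sterols are plentiful, Fasn, which makes fatty acids, Elovl5, which lengthens them, and Lpin1 and Lpin2, which form diacylglycerol, beside Agpat2, Cyp51, Scarb1 and Srebf2. Another 6 genes of that list had a peak at the start in the young list alone and 12 in the old list alone.

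The kept sites at genes of the secreted proteins of hepatocytes were poor in CpG. Of 42 such genes 7 had one (16.7%): the apolipoprotein genes Apoa1, Apoa2, Apob and Apoc3, the growth factor gene Igf1, the binding protein gene Igfbp1 and Itih1. Together the 7 genes had 10 kept sites, none of which had CpG-island letters, and the site nearest to the start of each gene held 7 to 16 CpG in 500 bp. The second site of Apoa2 held 5. Of the nearest sites of the 16 transcription factor genes 12 had such letters, with a median of 39 CpG, and of those of the 12 cholesterol and triglyceride genes 10 had them, with a median of 49.5. Low CpG was not particular to the secreted proteins. Such letters were at 1 of 4 nearest sites of cytochrome P450 genes (median 14.5 CpG) and at 0 of 2 of olfactory receptor genes. The differences between these lists were not tested. The Apob sites lay at chr12:7977587-7978086, 189 bp downstream of the start, and at chr12:7978108-7978607, and shared 382 and 97 bp with the same old peak, chr12:7977705-7978204. Both sites of Apoc3 shared 1 old peak too. Of 14 genome windows that were checked because their coordinates are published with these data, 7 held a kept site. They were overlapping pairs of windows at Apoa1 and Apoc3, at Apob and at Zfp180, and the window of Gm14412.

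Among the genes that write, read or erase marks on lysines 9 and 14, 10 of 32 had a kept site. Trim28, which encodes Kap1, had one at chr7:13023918-13024417, centred 16 bp downstream of the start, with 47 CpG and 476 bp shared with the old peak. The acetyltransferase genes Ep300, Crebbp, Kat2b and Kat5, the deacetylase genes Hdac1 and Sirt6, and the corepressor gene Ncor1 had one as well, beside Cbx3 and Ehmt1. Kat5 had 2 sites, which shared 499 and 65 bp with the same old peak, and the second had no CpG-island letters. Setdb1 had no H3K14ac peak within 1 kb of a start at either age, Cbx5 and Hdac3 had one in the young list alone, and 13 genes had one in the old list alone, among them Ehmt2, Kat7, Sirt1 and Suv39h2. The site nearest to the start had CpG-island letters in all 10 genes, and none of these 10 sites lay on a Kap1 or Setdb1 peak at either age. Of all kept sites at start sites, 76.3% had such letters and 95.2% had no peak of either factor.

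Kept sites were also found at the starts of 13 of 38 immediate early and stress genes, among them Atf4, Gadd45a, Gadd45g, Hspa5 and Hsp90aa1, of 11 of 35 interferon and inflammation genes, among them Stat2, Stat3, Irf1, B2m and H2-K1, and of 6 of 21 clock genes, which were Bhlhe40, Cry1, Csnk1d, Nr1d1, Nr1d2 and Rora. The share was 21 of 78 for cytosolic ribosomal proteins, 20 of 82 for subunits of the respiratory chain, 7 of 38 for the proteasome and 8 of 78 (10.3%) for mitochondrial ribosomal proteins, the last close to that of all protein-coding genes. Of 99 cytochrome P450 genes 4 had a kept site (Cyp2d22, Cyp2u1, Cyp4f13 and Cyp4f15), and of 1086 olfactory receptor genes 2 did (Olfr821 and Olfr827). None was found at the start of 39 Hox, 67 replication-dependent histone, 119 vomeronasal type 2 receptor and 56 clustered protocadherin genes. Lists were described by these counts, and no set test was run.

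**Figure D3:**
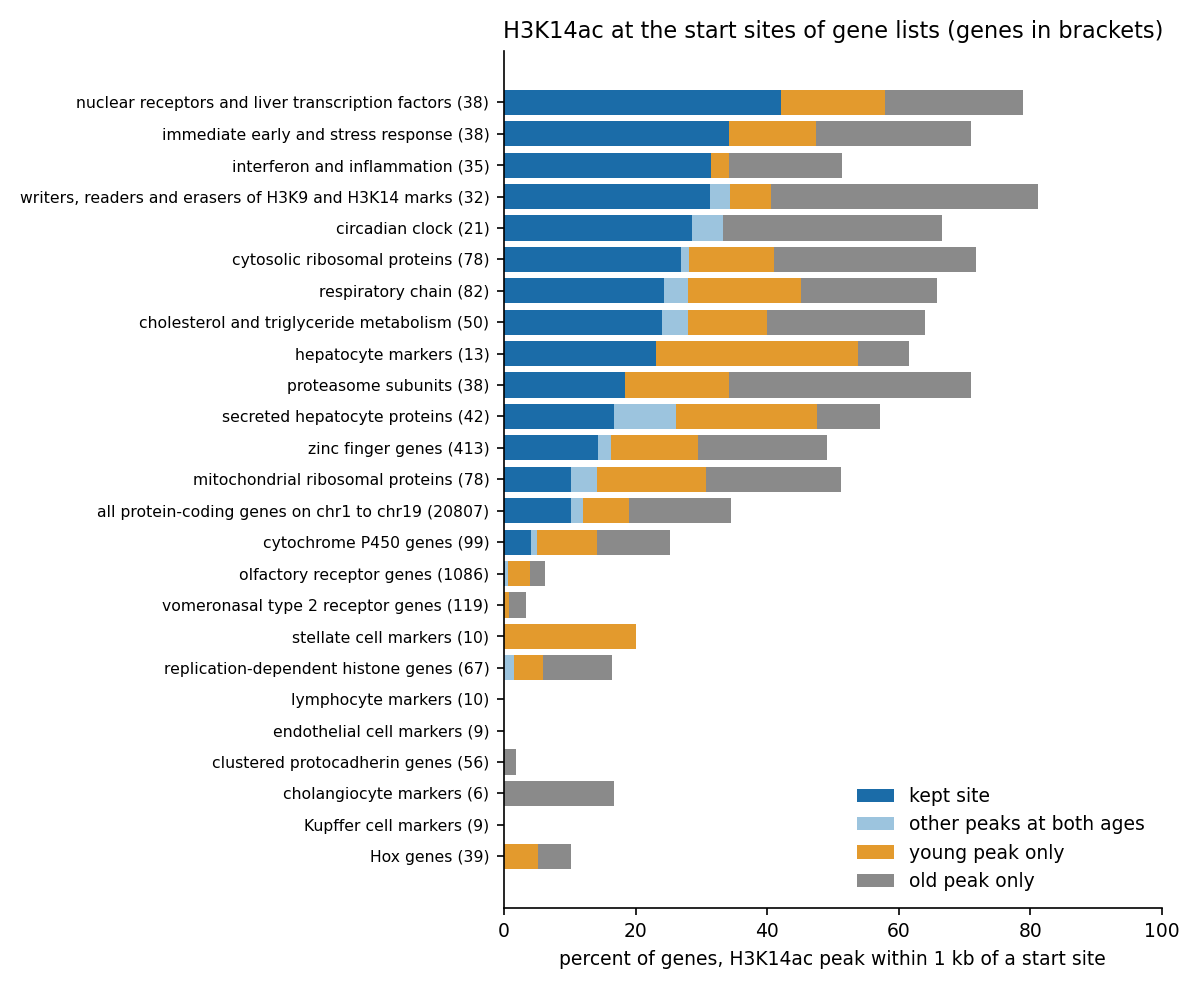
Percent of the genes of each list (horizontal axis; number of annotated genes in brackets) that had a kept site within 1 kb of a start site, other H3K14ac peaks there at both ages, or a peak at 1 age alone. Liver transcription factors and nuclear receptors stand highest for kept sites at 42.1%, against 10.2% of all protein-coding genes.

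Away from start sites, kept sites were found on Kap1 peaks far more often than the peaks of a single age. Of all kept sites 584 lay on a young Kap1 peak, or 16.2% (15% to 17.4%), against 10.6% of all 500 bp young H3K14ac peaks and 9.18% of the young-only ones. At start sites the share was 4.25% (3.51% to 5.13%) in kept and 5.23% in young-only peaks, a difference of -0.983 points with an interval that includes 0 (-2.15 to 0.196). When Kap1 peaks as far as 500 bp away counted, the shares at start sites were 5.55% and 8.32%, which is lower in kept sites by an interval that excludes 0 (-2.77 points, -4.16 to -1.38). Among the 1226 kept sites elsewhere it was 39.4% (36.7% to 42.2%) against 10.1%, a difference of 29.3 points (26.6 to 32.1). For old Kap1 peaks the shares were 13% of all kept sites and 3.49% of old-only peaks, with 5.54% of all old 500 bp peaks as the background. Away from start sites they were 32.1% and 4.33%, a difference of 27.8 points (25.2 to 30.5), and at start sites 3.07% and 1.56%. Over all sites the difference was 9.46 points (8.37 to 10.6). It was 2.88 points (2.04 to 3.86) without the 1 Mb bins that held 10 or more kept sites. The Kap1 lists differ in size, with 48915 young and 22141 old peaks. Of the kept sites with a young Kap1 peak, 69.0% also had an old one (65.1% to 72.6%), against 32.1% of such young-only peaks. A Kap1 peak at both ages was present at 403 kept sites, or 11.2% (10.2% to 12.3%), against 2.94% of young-only and 1.69% of old-only peaks. At start sites these shares were 2.90%, 1.51% and 0.748%, and elsewhere 27.2%, 3.26% and 2.10%.

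**Figure D4:**
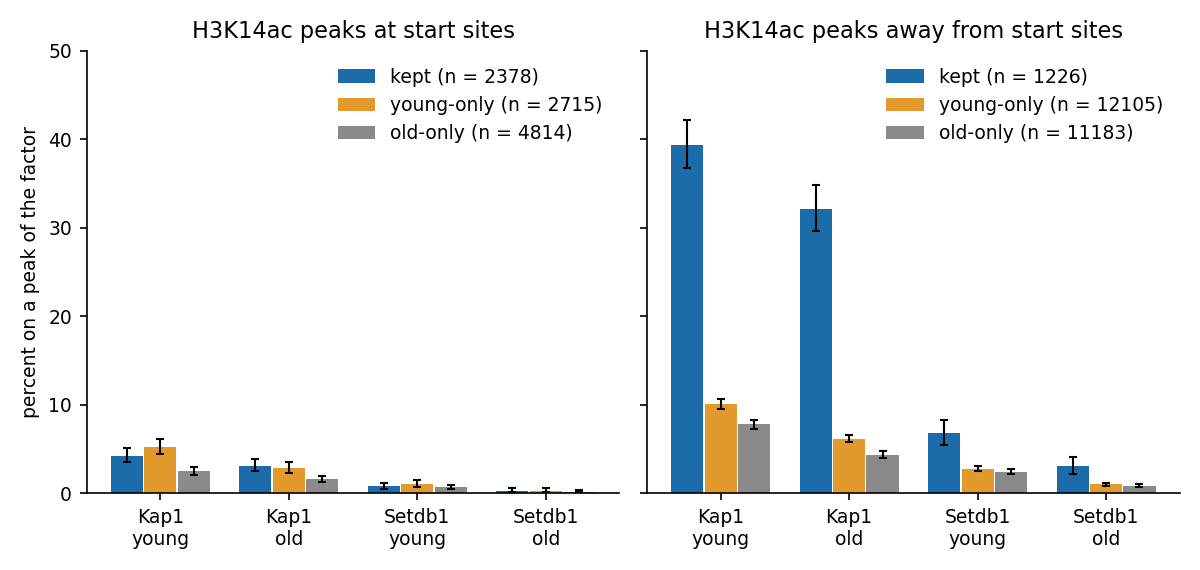
Percent of H3K14ac peaks (vertical axis) on a peak of Kap1 or Setdb1 of either age, at start sites (left) and away from them (right), for kept, young-only and old-only peaks; error bars are 95% Wilson intervals. Away from start sites 39.4% of the kept sites were on a young and 32.1% on an old Kap1 peak, and the other groups did not exceed 10.1%.

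Setdb1 was rarer. On a young Setdb1 peak lay 2.80% of the kept sites (2.31% to 3.39%), against 2.52% of all 500 bp young peaks and 2.45% of the young-only ones, a difference of 0.353 points whose interval includes 0 (-0.203 to 0.990). Away from start sites the share was 6.77% against 2.78%, a difference of 3.99 points (2.68 to 5.56). At start sites it was 0.757% against 0.994%, and with Setdb1 peaks as far as 500 bp away 1.35% against 2.28%, a difference of -0.938 points (-1.68 to -0.198). On an old Setdb1 peak lay 1.22% of the kept sites (0.911% to 1.63%), against 0.752% of all old 500 bp peaks and 0.619% of the old-only ones. Away from start sites these shares were 3.02% and 0.814%. Of the kept sites with a young Setdb1 peak 24 of 101 also had an old one, or 23.8% (16.5% to 32.9%), against 3.58% of such young-only peaks. No peak of either factor at either age was found at 81.2% of all kept sites, at 95.2% of those at start sites and at 53.9% of those elsewhere. In young-only peaks these shares were 85.8%, 92.5% and 84.3%, and in old-only peaks 90.2%, 96.1% and 87.6%, so that the gap was widest away from start sites.

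The Kap1 peaks that met kept sites were broad, and kept sites away from start sites lay in regions rich in Kap1 peaks. Of the young Kap1 peaks that met a kept site, 84.3% were wider than 150 bp, the commonest width of that list, against 47.4% of those that met a young-only peak and 11.5% of all. For young Setdb1 peaks, whose commonest width is 200 bp, these shares were 70.8%, 13.4% and 2.77%. A broader peak meets an H3K14ac peak more readily, and the part of width in the overlap was not tested. Around kept sites away from start sites, the 200 bp bins on either side of the midpoint held 113 and 117 midpoints of young Kap1 peaks per 1000 sites. In the other bins, the level lay between 36.7 and 61.2. Around young-only peaks it was 33.7 and 34.7 in the central bins and between 15.4 and 21.2 in the others.

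**Figure D5:**
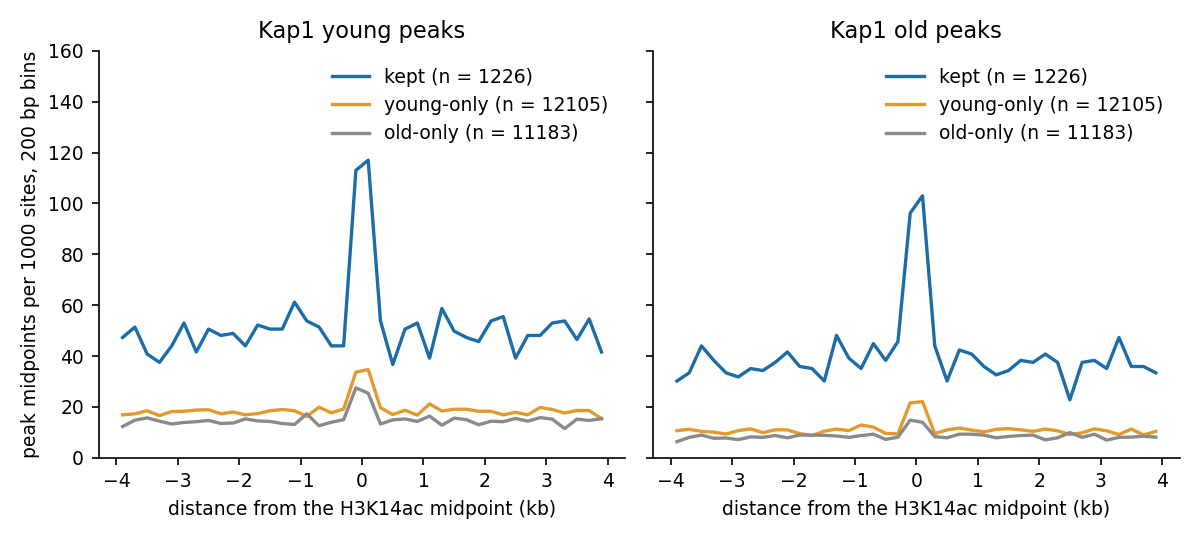
Midpoints of young (left) and old (right) Kap1 peaks per 1000 H3K14ac sites and 200 bp bin (vertical axis) against the distance from the H3K14ac midpoint in kb (horizontal axis), for sites away from start sites. Around kept sites the young profile reaches 113 and 117 in the central bins and stays above that of the other groups out to the ends of the window.

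The sites were unevenly spread. Joined within 10 kb they formed 2610 runs, of which 2080 held a single site, while 45 runs of 5 or more held 396 sites. Chromosome 4 had the most, 424 sites or 2.71 per Mb, and also the most young 500 bp peaks (1598), of which 26.5% were kept. Chromosome 11 had the highest kept share, 29.8% of 812 peaks, against 19.6% on chromosomes 1 to 19. The 3 fullest 1 Mb bins began at 147 Mb on chromosome 4 (60 kept and 41 young-only peaks), at 81 Mb on chromosome 10 (55 and 68) and at chr14:7000001 (46 and 60). In the bin on chromosome 4, where a cluster of zinc finger genes lies, 53 of the 60 were on a young and 48 on an old Kap1 peak. In that on chromosome 10 it was 2 of 55 on a young Kap1 peak, and in that on chromosome 14 it was 6 of 46. Of single genes, C230088H06Rik held 40 kept sites, 38 of them on a young Kap1 peak. Its sites are partly those of Gm26624 (26), which it overlaps, and Gm26573 on the same chromosome held 29. Nfic, a transcription factor gene, held 17 with none on Kap1. Trpm8, a cold-sensing channel gene, held 19 with 17 on a young Kap1 peak. Sfi1 held 13, with 9 on a young Kap1 peak. Gm20388 and Vps13d had 11 each with none, and A630001G21Rik and Platr16 had 9 each, with 3 and 8.

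The Kap1 values moved with this clustering. The 67 bins with 10 or more kept sites held 1205 of them, and 35.2% of these were on a young Kap1 peak, against 6.67% of the 2399 in other bins, a difference of 28.5 points (25.7 to 31.4). Without those bins the kept share exceeded the young-only share by 0.298 points over all sites, and the interval includes 0 (-0.731 to 1.44). Away from start sites the difference was present in both kinds of bin: 49.3% of kept and 28.2% of young-only peaks in the full bins, 21.1 points apart (16.9 to 25.3), and 25.3% and 7.04% in the others, 18.3 points apart (14.6 to 22.3). With the first site of each run alone the shares away from start sites were 29.1% and 6.33%. A bin was called full by its number of kept sites, and the splits by bin and run were added after the data were seen. A second copy of the site, aligned over at least 90% of its length at 95% identity, was present in the genome for 7.39% of the kept sites in full bins and 0.834% elsewhere, and for 3.02% of all (2.51% to 3.64%), against 1.75% of young-only peaks. Without sites that had a second copy 14.1% of the kept sites were on a young Kap1 peak. The part of repeated sequence in these shares was not tested further, and no signal of the input chromatin was analysed here.

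In zinc finger genes, some of which encode proteins that bring Kap1 to DNA, most kept sites lay at start sites without Kap1, and those on Kap1 came mainly from a cluster of these genes on chromosome 4. A kept site lay within 1 kb of a start of 59 of 413 such genes (14.3%), against 10.2% of all protein-coding genes. In 72 of the genes lay 97 kept sites, 22 of them on chromosome 7, which is 2.69% of all kept sites (2.21% to 3.27%), against 1.36% of young-only and 1.22% of old-only peaks. At start sites the share was 2.65% in kept and 2.76% in young-only peaks, and the interval of the difference includes 0 (-1.01 to 0.799). Elsewhere it was 2.77% and 1.04%, a difference of 1.73 points (0.926 to 2.82). Of the 63 of these at start sites 4 were on a young Kap1 peak. Away from the starts it was 5 of 11 on exons and 17 of 23 in introns, against 6 of 29 and 21 of 97 young-only peaks. These counts rest on chromosome 4, where all 19 such kept sites lay between chr4:145680147 and chr4:147795145 and 18 of them were on a young Kap1 peak, against 14 of 22 young-only peaks of that chromosome. On the other chromosomes it was 4 of 15 kept sites, of which 1 of 6 in introns, and 13 of 104 young-only peaks. There the share of sites away from start sites that lay in zinc finger genes was 1.51% in kept and 0.937% in young-only peaks, and the interval of the difference includes 0 (-0.0518 to 1.55). The split by chromosome was added after the data were seen. The site nearest to a start was that of Zfp988, 7 bp downstream, with 6 CpG and a Kap1 peak at both ages. Zfp946, Zfp949, Zfp637, Zfp335, Zfp523, Zfp324 and Zfp809, which follow in order of distance, had 21 to 55 CpG at their nearest sites and no Kap1 peak at either age. Zfp809 encodes a protein that binds retroviral primer binding sites. The 2 sites of Zfp180 lay on exonic sequence at chr7:24106137-24106636, on a young Kap1 peak, and at chr7:24106841-24107340, on an old one. The site of Gm14412, in an intron at chr2:177317599-177318098, was on a Kap1 peak at both ages.

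Peaks of both factors at both ages met at 19 kept sites (0.527%, 0.338% to 0.822%), against 3 young-only (0.0202%) and 1 old-only peak (0.00625%). Away from start sites it was 18 of 1226 kept, 3 of 12105 young-only and 1 of 11183 old-only peaks. Of these 19, 8 lay between genes, 7 in introns, 3 on exons and 1 at a start site. At 5 of them the starts of the 4 factor peaks lay within 10 bp of each other, and so did the ends. The intergenic site at chr9:24541829-24542328 had factor peaks of 308, 306, 308 and 308 bp for Kap1 young, Kap1 old, Setdb1 young and Setdb1 old, which began at the same base. At the Cmss1 site, chr16:57391342-57391841, they were 334, 338, 338 and 330 bp wide, and at the Camk1d site, chr2:5379080-5379579, they were 252, 249, 244 and 244 bp wide. The Fbxw4 site, chr19:45649926-45650425, had the same coordinates in both H3K14ac lists and factor peaks of 303, 304, 310 and 296 bp. The others named, in genome order, were in or nearest to Gm5466, Chia1, Chil3, Gm27878 (the one at a start site), Tmem125, Gm26763, C230088H06Rik, Peak1, Gm19256, AW822073 and Mdga2. The 2 sites next to Tmem125 met the same 4 factor peaks, as did the 2 next to Gm19256. Whether reads of the input pile up at these positions was not tested.

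The place of a peak in the young list went with its being kept. With the list cut into 10 equal parts in the order deposited, 944 of the 1559 peaks of 500 bp on chromosomes 1 to 19 in the first were kept sites, or 60.6% (58.1% to 62.9%). The share was 30.7% in the next and 10.1% in the last. Among peaks at start sites it went from 71.3% in the first to 23.3% in the last, and away from them from 40.5% to 7.80%. The sources used here do not say what the order stands for. This split was added after the data were seen.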

How the data were processed

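ChIP-Seq peak positions for H3K14ac, Kap1 and Setdb1 in young and old liver were analysed as deposited, 1 list per antibody and age. Per the submitters' notes and the methods, the authors mapped reads to mm10 with BWA, used Picard to discard duplicates, and called peaks with PeakSeq against input on the unique alignments of all livers of an age together. Merging makes each list a single sample, so that no test between ages was possible and shares carry counting error only. The depth behind a peak is unknown. Columns hold chromosome, start and end, and were used without filtering beyond the rule for members. The sequential ChIP samples were not analysed here.

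Genes and start sites were those of the GENCODE M21 basic set, and sequence was that of GRCm38.p6. Any base of a peak within 1 kb of a start placed it at that start, and otherwise exons, then introns, then the space between genes were assigned. Overlap code gave the same counts as bedtools 2.31.1 for all 30 pairs of lists, and intervals were tested on simulated data. Second copies were sought with minimap2 2.31-r1302 (asm20) on the assembled chromosomes alone, so copies outside them were not counted. The alternatives were a shared width of at least 250 bp or 50% of both peaks, peaks set to 200 bp, old partners of 500 bp only, young peaks that overlap another young peak left out, a single 500 bp partner, a 5 kb window, protein-coding starts, a gap of up to 500 bp to a factor peak, sites with a second copy left out, and sites at or away from starts.

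By rule, the text names up to 8 genes per list, nearest site first, kept sites on all 4 factor lists up to 15 in genome order, the 3 fullest bins, the 10 genes with most sites (11 with a tie), windows with published coordinates and sites at the edges of the rule. Some items that this rule names are not reported here. Named outside it, after their values were seen, are further kept genes of the lipid, liver transcription factor and chromatin lists (Cebpa and its sequence included), the genes without a kept site, the all-4-factor sites in Cmss1 and Fbxw4 with their sequences, and the further zinc finger sites. The members and gene lists were chosen with earlier results of these data known. The pattern for histone genes was narrowed once it was seen to take in genes of the major histocompatibility complex. Splits by bin, run, chromosome 4 and deposited order, and factor peak widths, were added after seeing the data.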

Additional observations from a re-analysis of the deposited data

How the results depend on the processing

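No paired analysis was possible because the livers of an age were merged into 1 list per antibody. For the same reason no replicate could be left out, and without scores no stricter peak threshold could be applied. With at least 250 bp or 50% of both peaks shared, 2851 or 2795 sites were kept, and the share at start sites was 68.0% or 68.3%. It was 77.0% with a 5 kb window, 62.2% for protein-coding starts, 78.9% without the full 1 Mb bins, 72.6% with 1 site per run, 67.8% without the 3 fullest bins and 73.0% in the first 50% of the deposited order. Without second copies 14.1% of kept sites were on young and 11% on old Kap1 peaks. When factor peaks as far as 500 bp away counted, 19.8%, 16.6%, 4.55% and 1.91% were on young Kap1, old Kap1, young Setdb1 and old Setdb1 peaks. At start sites alone these 4 shares were 4.25%, 3.07%, 0.757% and 0.294%, elsewhere 39.4%, 32.1%, 6.77% and 3.02%, and without the full bins 6.67%, 5.04%, 1.83% and 0.834%. With 1 site per run the first 3 were 9.92%, 7.09% and 2.22%, and in the first 50% of the order the young Kap1 share was 14.2%. Without the full bins 2.13% of kept sites were in zinc finger genes and 0.834% had a second copy (1.57% with 1 site per run). Kept minus young-only, the young Kap1 share was -0.983 points at start sites and 0.298 without the full bins. Kept minus old-only, the old Kap1 share was 9.46 points in all and 1.51 at start sites. It was 2.88 without the full bins and 4.69 with 1 site per run, with intervals above 0. For young Setdb1 the difference kept minus young-only was 0.353 points in all and reversed when those 500 bp were allowed (-0.308), at start sites (-0.238), without the full bins (-0.497) and with 1 site per run (-0.0278). It reached 3.99 elsewhere and 0.851 in the first 50% of the order, with intervals above 0. Kept minus old-only, the old Setdb1 share was 0.128 points at start sites and 0.242 without the full bins, with intervals that include 0. The cause of these changes was not tested. Of 59 alternative values of the 5 differences, 45 kept the sign and had an interval that excludes 0. Bins, runs and order were chosen after seeing the data.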
